A study of Mus musculus with 28 samples.

Results

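Liver RNA of male C57BL/6 mice aged 18 months was set against that of male C57BL/6 mice aged 6 months. The members are the 8 arrays that the labels place in those age groups, 4 per age and 1 array per mouse, out of 28 arrays of 7 groups in the series. Both groups were untreated, were bought as adults from one supplier, ate the same basal diet, were of approximately the stated age and were killed with carbon dioxide, per the labels. The study asked how the genes that handle foreign compounds in mouse liver are expressed over the life span. Mice of 12 and 24 months, 4 of each, entered the same fit and gave a second comparison of older with younger animals that shares no array with the first. Mouse numbers in the titles run from 2 to 21 at 6, 12 and 18 months and from 25 to 34 at 24 months, and the labels do not say whether that range marks a batch. Because the array measured pieces of whole liver, a shift in the share of a cell type and a shift in RNA per cell cannot be told apart.

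The liver is built mainly of hepatocytes, which make most plasma proteins, cholesterol and bile acids and carry the enzymes that oxidise, conjugate and export foreign compounds. Sinusoids between the hepatocyte plates hold Kupffer cells, the resident macrophages, and passing lymphocytes. Textbook accounts of ageing tissue describe more plasma cells, more interferon-driven transcription and a raised acute-phase response, which is the release of defence proteins by hepatocytes under cytokine control.

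Levels are given as log2(intensity + 16) after quantile normalization of the 16 C57BL/6 arrays, and a change is the difference of 2 group means on that scale. Array values run in the order of the mouse numbers in the labels, 2, 11, 16 and 21 at 6 months and 4, 9, 14 and 19 at 18 months. A level of 6.10 is the bound of background, set from the negative intensities, and values near it carry little signal. Levels of different genes are not comparable, since each probe set has its own response. Mean intensity before normalization ran from 230 to 272 at 6 months and from 217 to 261 at 18 months. The difference between Gapdh probe sets at the 3 prime and 5 prime ends, a sign of RNA integrity, ran from -0.19 to -0.08 at 6 months and from -0.23 to -0.16 at 18 months. The hepatocyte markers Alb, Apoa1, Ttr and Cyp2e1 were near the top of the scale on all 8 arrays, with a summed intensity of 53736 to 55580 at 6 months and 54037 to 55827 at 18 months. The number of arrays, 4 per age, limits the precision of each value, and the arrays are replicate mice as the labels name them.

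Of 18193 genes tested, 18 rose and 5 fell between 6 and 18 months at an adjusted p under 0.05 in limma's moderated test, which is 0.126% of the genes (0.0989% higher and 0.0275% lower). At an unadjusted p under 0.05 there were 1596 genes, or 8.77%. Over all genes the 2 ages did not overlap in 3.39% in the higher and 2.61% in the lower direction, and 46.1% had a positive change. The counts given for gene lists below are to be read beside these shares. The 18 and 6 month arrays did not overlap for any of the 23 called genes, against 6% of all genes. The same arrays gave the calls, so this separation largely follows from the selection. The changes were mostly small, with 9 of the 23 below 0.5 and 3 above 1 in size. The mean at 12 months lay between the means at 6 and 18 months for all 23. These genes were selected for their gap between 6 and 18 months, and the share among all genes was not counted, so no gradual course is inferred. With array brightness as a covariate 5 genes were called higher and 4 lower, and with the Gapdh difference as a covariate 3 and 4. The number of calls also moved under other settings, and the part of these 2 measures in it was not tested. Fitting the 8 arrays alone called 2 higher and 1 lower, with 2 of the 23 among them. Leaving out one array of the comparison kept the call of 6, 5, 4 and 1 of the 23 genes without 6 month mice 2, 11, 16 and 21, and of 1, 10, 6 and 2 without 18 month mice 4, 9, 14 and 19.

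Immunoglobulin transcripts gave the largest differences. Ighm encodes the heavy chain of immunoglobulin M, made by B cells and plasma cells. Its levels were 5.96, 6.07, 4.75 and 4.00 at 6 months, none above background, and 12.14, 9.14, 11.18 and 9.23 at 18 months. All 4 older mice stood above all younger ones, and mouse 4 was the highest and mouse 9 the lowest of them. The change was 5.23 ± 0.80 (SE, n = 4 per age; adjusted p = 0.0402), and measured against the background bound the older group was at least 20.02-fold brighter. Ighm has 11 probe sets, whose changes ran from 0.03, in a probe set not above background on any of these arrays, to 5.23. The one used can pick up related sequences, as its _s_at suffix marks. With such shared probe sets left out, the brightest remaining Ighm probe set gave 0.86 (adjusted p = 0.585). It was above background on no 6 month array and on 1 array at 18 months. Of the other Ighm probe sets 3 were above background on all 8 arrays, and they gave 2.83, 0.42 and 0.10 (unadjusted p = 0.00107, 0.0885 and 0.795), so the size of the Ighm change depends on the probe set.

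Igkv8-30, Jchain and Igha were likewise higher in every older mouse but did not pass the test. Igkv8-30, a variable segment of the kappa light chain read by a probe set open to cross-hybridisation, had levels of 7.00, 6.60, 6.73 and 6.73 at 6 months and 11.18, 8.67, 10.05 and 9.47 at 18 months. The difference was 3.08 ± 0.58 (adjusted p = 0.0874). Jchain, the joining chain that links immunoglobulin M and A into polymers, had levels of 6.49, 6.51, 6.33 and 6.23 at 6 months and 9.99, 7.54, 8.82 and 8.75 at 18 months, a difference of 2.39 ± 0.50 (adjusted p = 0.127). For both genes mouse 4 was highest and mouse 9 lowest among the older mice, as for Ighm. Igha, the heavy chain of immunoglobulin A, had levels of 6.05, 6.29, 6.56 and 6.60 at 6 months and 8.19, 7.12, 7.63 and 9.96 at 18 months, with mouse 19 highest (1.85 ± 0.74, adjusted p = 0.506). Of 18 measured genes of the immunoglobulin and plasma cell list 1 was called, 13 were positive and 5 had non-overlapping groups in the higher direction (27.8%, against 3.39% of all genes).

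Markers of the B cell surface were dim. Cd79a, a signalling chain of the B cell receptor, was not above background on any of the 8 arrays, with levels of 4.67 to 5.52 at 6 months and 5.09 to 5.72 at 18 months. Ms4a1, which encodes CD20, ran from 5.52 to 6.16 and from 6.07 to 6.49 (0.44 ± 0.17, adjusted p = 0.466). Mzb1, an endoplasmic reticulum protein of antibody-secreting cells, gave 0.15 ± 0.18 (adjusted p = 0.884). The summed intensity of 6 measured B and plasma cell markers was 229 to 259 at 6 months and 875 to 5743 at 18 months. That sum includes Ighm and Jchain, so it is not separate from their values given above. All 3 measured T cell markers were at background on every array, and none of the 21 genes of the B cell list or the 30 of the T and NK cell list was called. The part of cell number in the immunoglobulin values was not tested.

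**Figure D1:**
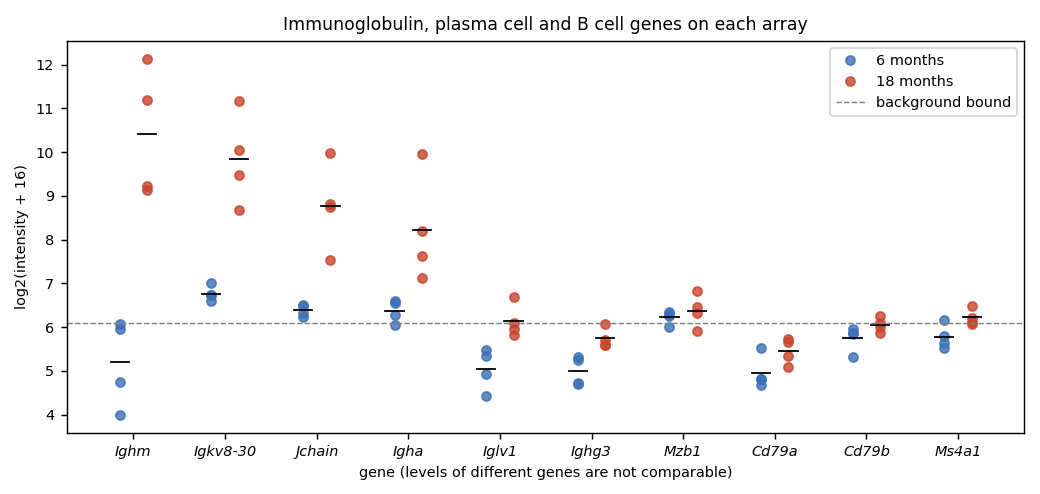
Level of 10 immunoglobulin, plasma cell and B cell genes on each array, log2(intensity + 16), at 6 months (blue) and 18 months (red), with group means as black bars and the background bound of 6.10 as a dashed line. The 4 older mice lie above the 4 younger ones for Ighm, Igkv8-30, Jchain and Igha, and the B cell genes Cd79a, Cd79b and Ms4a1 lie below or near the bound at both ages.

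Secreted liver proteins of the acute-phase response made up the second group of called genes. Fgl1 encodes fibrinogen-like protein 1, a hepatocyte protein related to fibrinogen that also serves as a ligand of an inhibitory T cell receptor. It stood at 10.24 in mouse 16 and at 10.84 to 11.01 in the other 6 month mice, and at 12.05, 11.88, 12.31 and 12.46 at 18 months. The lowest older mouse was thus above the highest younger one. Fgl1 rose by 1.41 ± 0.21 (adjusted p = 0.0402), which is 2.65-fold on the intensity + 16 scale.

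Itih4, a plasma protein of the inter-alpha-trypsin inhibitor family, stood at 13.03, 12.98, 12.89 and 13.05 at 6 months and at 13.37, 13.35, 13.49 and 13.41 at 18 months. The mice of each age lay within a narrow band and the bands were apart. Itih4 rose by 0.42 ± 0.06 (adjusted p = 0.0226). Haptoglobin, Hp, which binds free haemoglobin, stood at 13.09, 13.03 and 13.01 in 6 month mice 11, 16 and 21, just under that in mouse 2, and at 13.25, 13.23, 13.38 and 13.30 at 18 months, a rise of 0.26 ± 0.04 (adjusted p = 0.0485).

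The RefSeq table for GRCm38.p6 held start-site windows for 17 of the 23 called genes, and 250 bases before each start were searched for the STAT palindrome TTCNNNGAA, the motif through which STAT factors act in the acute-phase response. The motif was present in 7.02% of all 32851 windows. The 17 called genes have 23 windows, and the motif was found for Itih4 and Rab34, which is not read as more than that share. The Itih4 window, shown for its match in capitals, lies at chr14:30886226-30886475 on the plus strand, and the match begins 51 bases before the start.
Itih4: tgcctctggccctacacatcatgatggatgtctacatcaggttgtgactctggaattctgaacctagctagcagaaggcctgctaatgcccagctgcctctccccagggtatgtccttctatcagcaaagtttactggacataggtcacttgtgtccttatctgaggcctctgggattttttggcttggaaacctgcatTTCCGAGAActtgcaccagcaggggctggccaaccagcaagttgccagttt

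Across the acute-phase and fibrinogen list, 3 of 36 measured genes were called (Fgl1, Itih4 and Hp, all higher) and 31 were positive. Groups did not overlap in the higher direction for 12 (33.3%, against 3.39% of all genes). Under array median scaling and under trimmed mean scaling 7 were non-overlapping. The median change was 0.19, against 0 over all genes. Members that did not pass the test included Apcs, serum amyloid P, with 9.95 to 10.40 at 6 months and 10.94 to 11.59 at 18 months (1.07 ± 0.23, adjusted p = 0.137). Lcn2, an iron-scavenging protein of hepatocytes and neutrophils, was below the bound on all 6 month arrays and stood at 6.83 to 7.70 at 18 months (1.36 ± 0.47, adjusted p = 0.413). Stat3, the factor that carries the interleukin signal to these genes, had a difference of 0.54 ± 0.13 (adjusted p = 0.204). Saa1, a classical marker of strong acute-phase induction, overlapped between ages, with 10.11 to 10.66 and 9.92 to 10.71 (95% interval of the difference -0.76 to 0.87). The fibrinogen chains Fga, Fgb and Fgg gave 0.05, 0.11 and 0.10, with unadjusted p of 0.117, 0.0276 and 0.0282, and none was called.

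Complement genes, whose products tag microbes for removal, had a positive difference in 23 of 26 measured members, with a median of 0.16 and none called. Of them 10 were non-overlapping higher (38.5%, against 3.39% of all genes). Cfi, complement factor I, the protease that cleaves activated complement, stood at 12.74 to 12.87 at 6 months and 13.07 to 13.16 at 18 months (0.28 ± 0.05, adjusted p = 0.111). Hc, complement component C5, gave 0.29 ± 0.06 (adjusted p = 0.154). The C1q chains C1qa, C1qb and C1qc, made by macrophages, were higher by 0.65, 0.64 and 0.65 with standard errors of 0.41, 0.41 and 0.37.

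Tmem176a and Tmem176b, neighbouring genes for membrane channel proteins of myeloid and other cells, were both called. Tmem176a stood at 10.65, 10.59, 10.29 and 10.61 at 6 months and at 11.12, 11.14, 11.41 and 11.35 at 18 months. It rose by 0.72 ± 0.11 (adjusted p = 0.0412). Tmem176b stood at 11.08, 11.13, 10.97 and 11.15 at 6 months and at 11.60, 11.65, 11.82 and 11.81 at 18 months, a rise of 0.64 ± 0.10 (adjusted p = 0.0412). In both genes mice 14 and 19 were the highest of the older group and mouse 16 the lowest of the younger group. The other Tmem176a probe sets gave 0.87 and 0.34. The genes lie head to head on chromosome 6, and 108 bases separate their closest RefSeq starts, with Tmem176b on the minus strand to the left and Tmem176a on the plus strand to the right. That stretch, chr6:48841375-48841482 of GRCm38.p6 read on the plus strand, is shown because it lies directly before both called genes.
Tmem176b to Tmem176a: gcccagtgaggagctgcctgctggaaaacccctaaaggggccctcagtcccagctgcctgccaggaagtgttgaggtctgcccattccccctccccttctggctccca

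**Figure D2:**
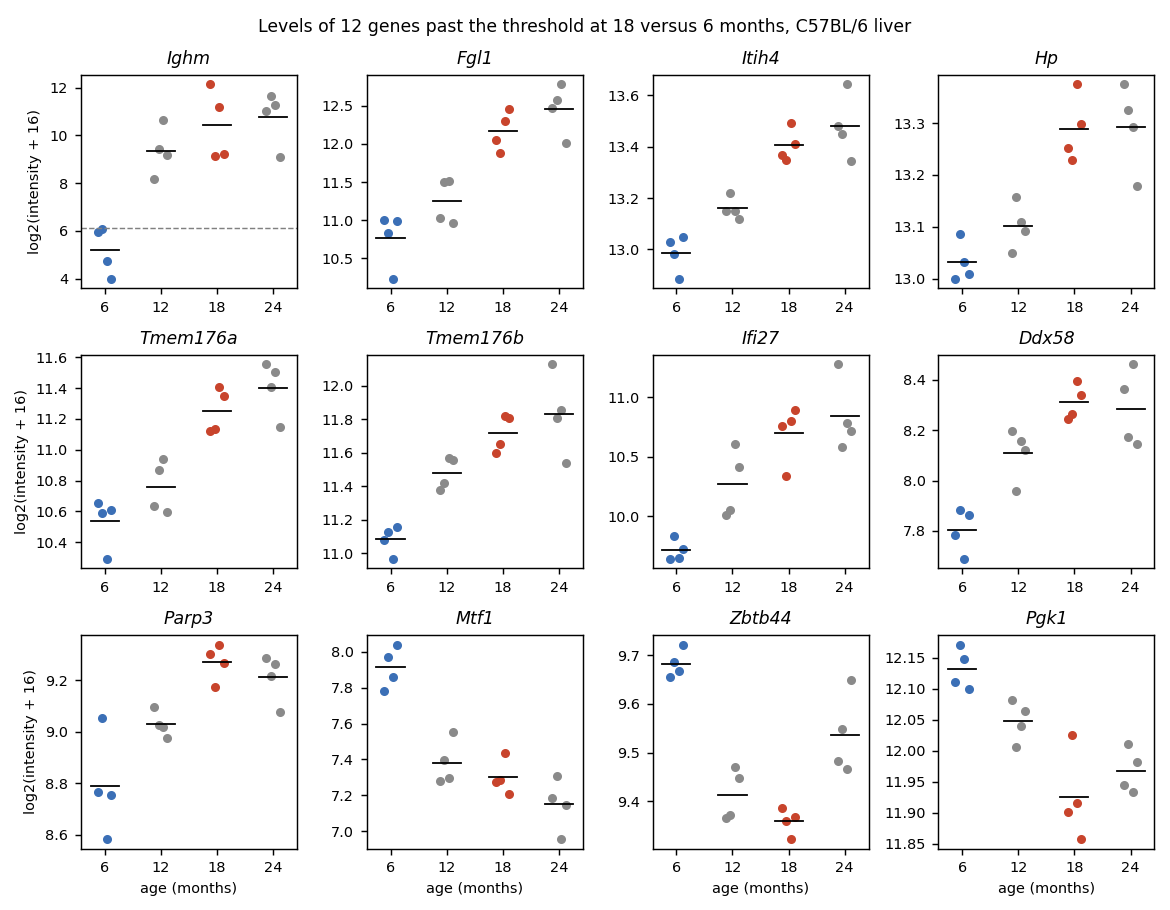
Level of 12 called genes, log2(intensity + 16), on each array at 6 (blue), 12 (grey), 18 (red) and 24 months (grey), with group means as black bars and, for Ighm, the background bound as a dashed line. The vertical axes differ between panels and do not start at 0. For each gene, selected by the test of 18 against 6 months, the 18 month mice are apart from the 6 month mice. The 12 month mean lies between.

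Interferon-response genes formed the third group. Interferons signal through STAT and IRF factors to genes that detect and restrict viruses. Ifi27, an interferon-inducible protein of the mitochondria and nuclear envelope, stood at 9.65, 9.83, 9.65 and 9.73 at 6 months and at 10.75, 10.34, 10.80 and 10.89 at 18 months. It rose by 0.98 ± 0.17 (adjusted p = 0.0485), with mouse 9 the lowest of the older group. Ddx58, which encodes RIG-I, a sensor of viral RNA, stood at 7.78, 7.88, 7.69 and 7.86 at 6 months and at 8.24, 8.27, 8.39 and 8.34 at 18 months. It rose by 0.51 ± 0.08 (adjusted p = 0.0388), and its other probe sets gave 0.57 and 0.42. Parp3, a poly(ADP-ribose) polymerase of DNA repair, is outside that list and stood at 8.77, 9.05, 8.58 and 8.75 and then at 9.30, 9.17, 9.34 and 9.27, a rise of 0.48 ± 0.08 (adjusted p = 0.0483).

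The list as a whole lay on the positive side. Of 41 measured interferon-response genes 2 were called higher and none lower, 39 were positive, 17 had an unadjusted p under 0.05 in the higher direction (4.5% of all genes) and 21 were non-overlapping (51.2%, against 3.39%). The median change was 0.51. The median level of the list was 6.91 to 7.17 on the 6 month arrays and 7.54 to 7.83 on the 18 month arrays. Mouse 19 had the highest value of the older group and mouse 21 that of the younger. Over the other scalings and pseudocounts the median ran from 0.37 to 0.55 with 39 positive members each time.

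Members that were not called spanned sensors, factors and effectors. Irf7, the factor that amplifies the interferon signal, stood at 7.46, 7.42, 7.52 and 7.66 at 6 months and at 8.37, 8.38, 8.65 and 9.04 at 18 months (1.10 ± 0.30, adjusted p = 0.283). Stat2, a subunit of the interferon-activated complex, gave 0.72 ± 0.17 (adjusted p = 0.185), and Irf9, its partner, gave 0.43 ± 0.13 (adjusted p = 0.327). Usp18, which switches the pathway off, had a difference of 1.14 ± 0.33 (adjusted p = 0.325). The 4 older mice were above the 4 younger ones for each of these 4 genes. Among effectors Ly6e, a membrane protein that limits viral entry, stood at 10.81 to 11.24 and 11.76 to 12.31 (0.92 ± 0.22, adjusted p = 0.203), and Ifit1, which binds viral RNA, gave 0.97 ± 0.28 (adjusted p = 0.325). Shfl, an inhibitor of viral frameshifting, had levels of 8.33 to 8.83 and 9.05 to 9.38 and missed the threshold most narrowly of the non-overlapping genes above background (0.66 ± 0.12, adjusted p = 0.0502). Trim30d, of the Trim family, gave 0.93 ± 0.17 (adjusted p = 0.0849).

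The core of the interferon-stimulated response element, GAAA followed after any 2 bases by a second GAAA and read on both strands, was present in 2.98% of the 32851 windows of 250 bases. Among the called genes with a window only Rbm43 held it, with 2 overlapping matches that begin 224 and 218 bases before the start. With 23 windows of called genes searched, 1 such gene is not read as more than that share. Rbm43 encodes an RNA-binding protein, and stood below the bound at 6 months (5.69, 6.03, 5.83 and 6.10) and above it at 18 months (6.49, 6.72, 6.42 and 6.76). It rose by 0.68 ± 0.11 (adjusted p = 0.0412), at least 1.41-fold. The Rbm43 and Ddx58 windows are shown to compare a called gene that holds the motif, in capitals, with one that lacks it at that spacing. The Ddx58 window does hold the closer repeat gaaacgaaa, which the search did not count. The 2 windows lie at chr2:51935164-51935413 and chr4:40239826-40240075, both on the minus strand.
Rbm43: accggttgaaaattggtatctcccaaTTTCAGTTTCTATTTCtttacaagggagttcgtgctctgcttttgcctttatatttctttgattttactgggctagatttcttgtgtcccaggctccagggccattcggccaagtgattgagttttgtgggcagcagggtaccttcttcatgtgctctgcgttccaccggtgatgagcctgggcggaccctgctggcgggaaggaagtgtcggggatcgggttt
Ddx58: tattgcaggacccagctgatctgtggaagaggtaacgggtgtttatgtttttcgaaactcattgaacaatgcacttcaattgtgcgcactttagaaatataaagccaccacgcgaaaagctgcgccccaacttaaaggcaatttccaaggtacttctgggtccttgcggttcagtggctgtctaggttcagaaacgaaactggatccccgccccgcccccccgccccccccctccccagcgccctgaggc

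Macrophage genes lay on the same side as the interferon list. Of 34 measured genes of the macrophage and Kupffer cell list 32 were positive and 19 non-overlapping higher (55.9%, against 3.39% of all genes). The median was 0.42, yet none was called and 2 had an unadjusted p under 0.05. The fit pools the spread of all ages, and the list's median level ran from 7.60 to 9.55 among the 24 month mice against 7.25 to 7.56 at 6 months and 7.78 to 8.19 at 18 months. Marco, a scavenger receptor, had levels of 6.72, 5.52, 6.78 and 6.27 at 6 months and 8.08, 7.14, 8.60 and 9.36 at 18 months (1.97 ± 0.67, adjusted p = 0.413). Vsig4, a complement receptor of Kupffer cells, gave 0.60 ± 0.36 (adjusted p = 0.692). Clec4f, a lectin specific to Kupffer cells, gave 0.34 ± 0.33 (adjusted p = 0.841), with 9.52 to 9.91 and 9.80 to 10.34 overlapping. The summed intensity of 5 Kupffer cell markers was 3079 to 3993 at 6 months and 4146 to 6930 at 18 months, and its part in the interferon and complement values was not tested. Of the antigen presentation and dendritic cell list 25 of 29 genes were positive and 2 called, both being Tmem176 genes.

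Cholesterol synthesis genes lay on the positive side. This pathway turns acetyl units into sterols under control of the factor Srebf2. All 21 measured members were positive, 11 were non-overlapping higher (52.4%, against 3.39% of all genes), 13 had an unadjusted p under 0.05 and none was called, with a median of 0.44. Under array median scaling 20 were positive, 1 was negative and 7 were non-overlapping. Sqle, squalene epoxidase, the first oxygen-requiring step, stood at 9.89, 9.59, 10.03 and 10.03 at 6 months and at 10.80, 10.57, 11.40 and 11.13 at 18 months. Its difference was 1.09 ± 0.22 (adjusted p = 0.121), and mouse 14 was highest, as it was for Fdps (12.51), Fdft1 (11.42) and Hmgcs1 (12.76). Pmvk, phosphomevalonate kinase, gave 0.70 ± 0.23 (adjusted p = 0.392) and Mvd, which makes isopentenyl diphosphate, 0.66 ± 0.18 (adjusted p = 0.282). Srebf2 itself overlapped between ages, at 6.78 to 7.64 and 7.41 to 7.77 (0.29, unadjusted p = 0.115), and another of its probe sets gave 0.41 (unadjusted p = 0.029). The median level of the list was 10.09 to 10.36 at 6 months and 10.57 to 11.03 at 18 months, while the 24 month mice spanned 10.12 to 10.85. Fatty acid synthesis was less uniform, with 26 of 48 members positive. Fasn, fatty acid synthase, had levels of 10.23 to 10.56 and 10.86 to 11.55 (0.79 ± 0.16, adjusted p = 0.121), whereas Scd1, stearoyl-CoA desaturase, gave 0.06 with a 95% interval of -0.07 to 0.20.

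**Figure D3:**
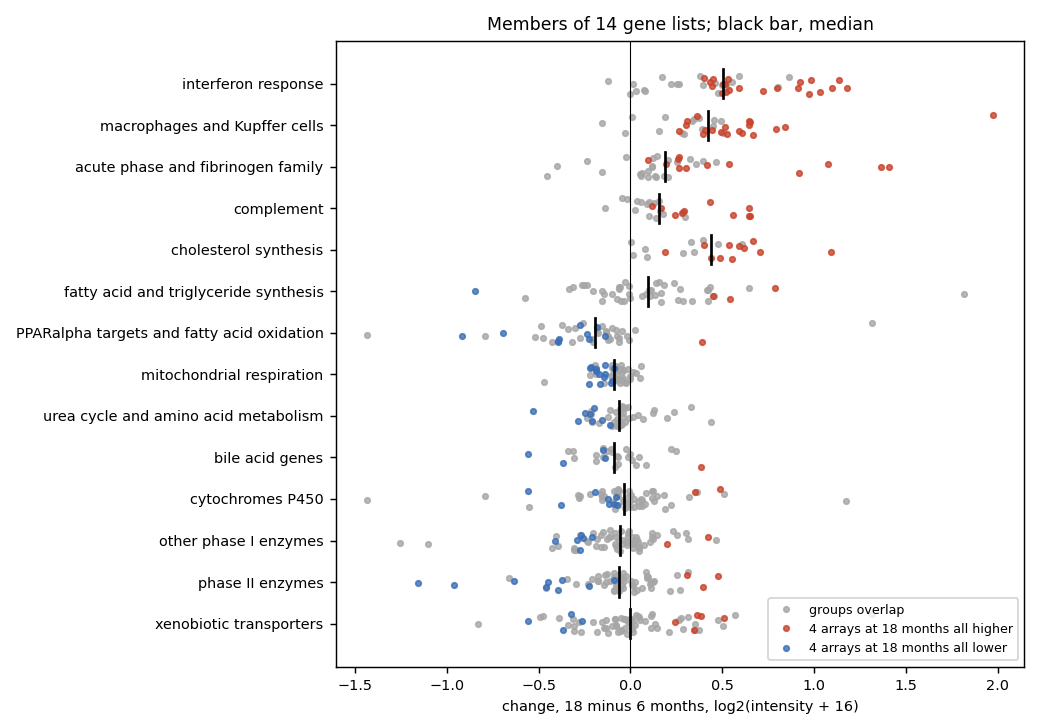
Change from 6 to 18 months, in log2(intensity + 16), of each measured member of 14 gene lists, with the median as a black bar. Red and blue points mark genes whose 4 older arrays were all above or all below the 4 younger ones. The interferon, macrophage and cholesterol lists lie to the right of 0, with medians of 0.51, 0.42 and 0.44, and the PPARalpha list to the left, with -0.19.

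On the negative side stood genes of energy metabolism. PPARalpha is the nuclear receptor that switches on fatty acid oxidation in fasting. Of 44 measured PPARalpha targets and oxidation genes 41 were negative, 10 were non-overlapping in the lower direction (22.7%, against 2.61% of all genes), 17 had an unadjusted p under 0.05 in that direction (4.27% of all genes) and none was called. The median change was -0.19. The list's median level was 10.70 to 10.77 at 6 months and 10.32 to 10.61 at 18 months. Eci1, an isomerase of unsaturated fatty acid oxidation, stood at 10.78, 10.96, 10.92 and 10.86 and then at 10.46, 10.52, 10.33 and 10.64 (-0.39 ± 0.10, adjusted p = 0.222). Ehhadh, the peroxisomal bifunctional enzyme, gave -0.39 ± 0.10 (adjusted p = 0.228) and Acot1, an acyl-CoA thioesterase, -0.92 ± 0.26 (adjusted p = 0.301). The receptor gene Ppara overlapped between ages (-0.27, 95% interval -0.77 to 0.24). Cpt1a, the gate of mitochondrial import, also overlapped (-0.15, unadjusted p = 0.378), while its other probe sets, above background on all 8 arrays, gave -0.61 and -0.37 (unadjusted p = 0.00763 and 0.0295).

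Mitochondrial respiration genes had small negative differences. Of 50 measured members 46 were negative and 13 non-overlapping in the lower direction (26.0%, against 2.61% of all genes), none was called, and the median was -0.09. The non-overlapping count was 5 under array median scaling and 6 under trimmed mean scaling. Uqcrc2, a core subunit of complex III, stood at 11.94 to 12.00 at 6 months and 11.72 to 11.83 at 18 months (-0.19 ± 0.05, adjusted p = 0.214). Sdhb, the iron-sulphur subunit of succinate dehydrogenase, gave -0.21 ± 0.07 (adjusted p = 0.391). The list's median level overlapped between ages, at 11.59 to 11.73 and 11.55 to 11.64. Urea cycle and amino acid genes were negative in 35 of 44 members with 8 non-overlapping lower (18.2%, against 2.61% of all genes), which was 2 under array median scaling. Otc, ornithine transcarbamylase, gave -0.22 ± 0.06 (adjusted p = 0.275).

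**Figure D4:**
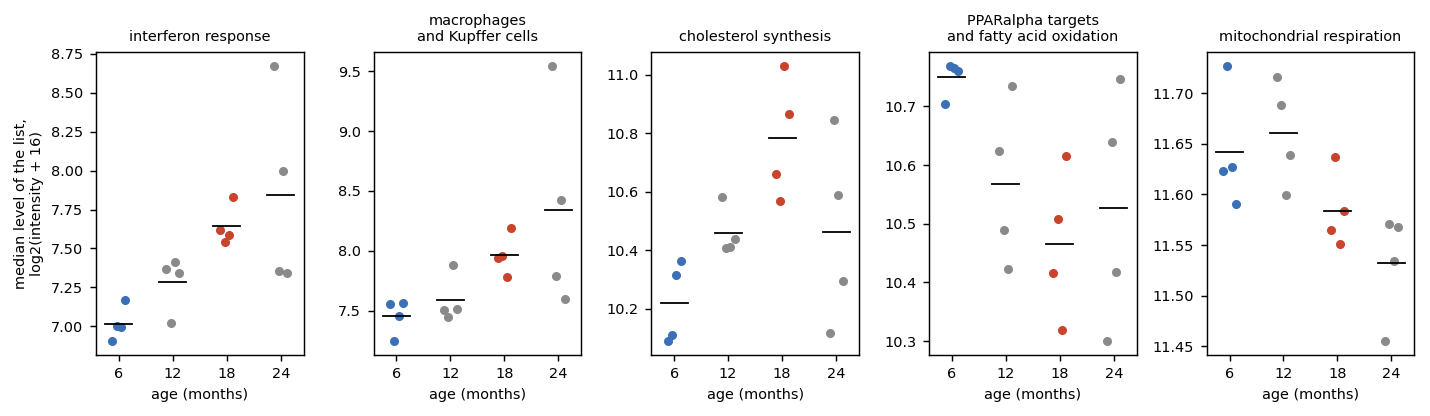
Median level over the members of 5 gene lists, log2(intensity + 16), on each array by age, with group means as black bars. The axes differ between panels. The 18 month mice stand above the 6 month mice for the interferon list (7.54 to 7.83 against 6.91 to 7.17), the macrophage list and the cholesterol list and below them for the PPARalpha list, and the 24 month mice have the widest spread in the first 4 panels.

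The genes the study was designed for, those that handle foreign compounds, had no called member. Cytochromes P450 oxidise drugs, steroids and fatty acids. Of 65 measured P450 genes 41 were negative, with a median of -0.03. Non-overlapping were 8 lower (12.3%, against 2.61% of all genes) and 2 higher (3.1%, against 3.39%). The count in the lower direction was 3 under array median scaling and 4 under trimmed mean scaling. The most abundant drug-metabolising forms differed little, with Cyp2e1 at -0.01 (95% interval -0.07 to 0.06), Cyp3a11 at -0.06 (-0.15 to 0.02) and Cyp1a2 at -0.14 (-0.47 to 0.18). Cyp7a1, which sets the pace of bile acid synthesis, varied widely at both ages, from 7.97 to 9.97 and from 8.69 to 10.28, and its interval of -0.71 to 1.15 leaves sizeable changes undetectable with 4 mice. Cyp4a12a, a male-biased fatty acid hydroxylase, stood at 12.31, 12.48, 12.46 and 12.26 at 6 months and at 12.10, 11.76, 11.76 and 11.65 at 18 months (-0.56 ± 0.14, adjusted p = 0.225).

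Other phase I enzymes were negative in 44 of 69 members and conjugating phase II enzymes in 41 of 64, with 9 of the latter non-overlapping lower (14.1%, against 2.61% of all genes). Ces2a, a carboxylesterase that hydrolyses ester drugs, stood at 12.21 to 12.35 and 11.89 to 12.10 (-0.26 ± 0.06, adjusted p = 0.154). Gsta2, a glutathione transferase, stood at 11.49, 11.19, 11.46 and 11.07 and then at 10.25, 10.40, 10.27 and 10.47 (-0.96 ± 0.21, adjusted p = 0.148). Its family member Gsta4 gave -0.46 ± 0.11 (adjusted p = 0.18), and Ugt2b38, a glucuronosyltransferase of a gene family with close copies, -1.15 ± 0.26 (adjusted p = 0.171). For these 4 genes the ages did not overlap. Sult1a1, a phenol sulphotransferase, went the other way, with 11.45 to 11.97 at 6 months and 12.00 to 12.13 at 18 months (0.39 ± 0.10, adjusted p = 0.258). Transporters were balanced, with 34 of 71 positive and 36 negative. Slco2a1, a prostaglandin carrier, gave 0.38 ± 0.08 (adjusted p = 0.121), and Abcb11, the bile salt export pump, -0.37 ± 0.09 (adjusted p = 0.225). The receptors that govern these enzymes, Ahr, Nr1i2 (PXR) and Nr1i3 (CAR), gave 0.19, -0.30 and -0.09, and none was called.

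Lists of other cell types and processes had few or no called members, and each is given by its counts and its member of smallest p. Over all genes 46.1% had a positive change, and counts near that share set no list apart. Endothelial genes were positive in 22 of 29 measured members with 3 non-overlapping higher (10.3%, against 3.39% of all genes), led by Pecam1, an adhesion molecule (0.62 ± 0.16, adjusted p = 0.254). Stellate cell and matrix genes were positive in 31 of 37, led by the proteoglycan Dcn (0.37 ± 0.14, adjusted p = 0.492). Of them 2 were non-overlapping higher (5.4%, near the 3.39% of all genes), and 1 under array median or trimmed mean scaling. The neutrophil list was positive in 9 of 16 with Lcn2 first, and the summed intensity of S100a8 and S100a9 was 37.6 to 90.3 at 6 months and 102 to 154 at 18 months. The median changes of these 3 lists were 0.12, 0.17 and 0.05, against 0.42 for the macrophage list. Genes above background on all arrays of an age were 27 of 29, 22 of 37 and 2 of 16, against 29 of 34 macrophage genes. The neutrophil median thus comes mostly from genes not above background and cannot be compared with that of the macrophage list. Cholangiocyte genes were positive in 10 of 16 with 0 non-overlapping, led by Sox9 (0.46 ± 0.19, adjusted p = 0.513). T and NK cell genes were positive in 17 of 30 with 1 non-overlapping higher and 1 lower, led by Cd5 (0.44 ± 0.14, adjusted p = 0.407). B cell genes were positive in 16 of 21 with 3 non-overlapping higher (14.3%), led by the factor Spib (0.58 ± 0.13, adjusted p = 0.18). Sox9, Cd5 and Spib were not above background on any of the 8 arrays. Macrophage genes, counted above, were led by the tetraspanin Cd9 (0.41 ± 0.12, adjusted p = 0.325). Of the pancreas enzymes, Cpa1 was at the floor on all 8 arrays, while Cela1, an elastase, stood at 9.64 to 10.04 at 6 months and 10.15 to 10.56 at 18 months (0.50 ± 0.23, adjusted p = 0.572) and Prss2, a trypsinogen, at 6.84 to 6.94 and 6.45 to 6.63 (-0.37 ± 0.16, adjusted p = 0.547). The summed intensity of these 3 markers was 886 to 1133 and then 1201 to 1574, without overlap. Most of that sum is Cela1, the only one of the 3 that was higher, so it is not a separate measure of pancreas tissue. Its part in other values was not tested. The list of pancreas and adjoining tissue was led by Krt5 (-0.76 ± 0.21, adjusted p = 0.275). Erythroid genes were negative in 12 of 20, led by Gata1 (-0.43 ± 0.09, adjusted p = 0.146), which was not above background on any of the 8 arrays.

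Secreted plasma proteins outside the acute-phase list were positive in 30 of 38 with 7 non-overlapping higher (18.4%, against 3.39% of all genes) and a median of 0.06. That count was 1 under array median scaling and 3 under trimmed mean scaling. Fetub, a fetuin that inhibits proteases, stood at 11.93 to 12.04 and 12.19 to 12.54 (0.36 ± 0.08, adjusted p = 0.175), while albumin, Alb, gave 0.00 with a 95% interval of -0.12 to 0.12. Noct, a clock-controlled phosphatase, had levels of 7.99, 7.07, 8.74 and 8.28 at 6 months and 8.94, 9.76, 9.95 and 9.77 at 18 months (1.58 ± 0.45, adjusted p = 0.299), the first of a clock list with 11 of 27 members positive. Stress genes were mixed, and their counts stand beside 46.1% of all genes with a positive change. The unfolded protein response list was positive in 19 of 37, led by Atf3 (0.62 ± 0.15, adjusted p = 0.218), which was not above background on any array of either age. The Nrf2 list was negative in 19 of 35, led by Gsta2, though its median level was 10.51 to 10.60 at 6 months and 10.25 to 10.40 at 18 months. Median levels of the phase II, complement, secreted plasma protein and erythroid lists were likewise apart between ages. Chaperones were negative in 16 of 23, led by Hspd1 (-0.14 ± 0.08, adjusted p = 0.654). Inflammation and NF-kB genes were positive in 34 of 45, led by the chemokine Cxcl12 (0.27 ± 0.09, adjusted p = 0.418). Cell cycle and senescence genes were positive in 26 of 46, led by Ccne2 (-0.52 ± 0.19, adjusted p = 0.446), which was not above background on any array of either age.

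Sex-biased and zonal genes gave a further view of the hepatocyte. The counts here stand beside 46.1% of all genes with a positive change, and those near it set no list apart. Male-biased genes were negative in 23 of 33 members, with Ugt2b38 first, and female-biased genes were positive in 15 of 30, with Cyp2b9 first (1.17 ± 0.47, adjusted p = 0.51). Cyp2b9 was below the bound on all 6 month arrays and at 4.95 in mouse 4, against 6.31 to 7.35 in the other older mice. Hsd17b6, a steroid dehydrogenase of periportal hepatocytes, stood at 11.08, 10.88, 11.65 and 11.36 and then at 9.68, 9.76 and 10.11 in mice 4, 9 and 14, with mouse 19 overlapping the younger group (-1.10 ± 0.29, adjusted p = 0.264). Perivenous genes were negative in 15 of 26, led by Oat (-0.17 ± 0.06, adjusted p = 0.466). Receptor and liver factor genes were led by Esr1, the oestrogen receptor (0.72 ± 0.24, adjusted p = 0.41), and growth hormone axis genes by Igf2 (0.87 ± 0.24, adjusted p = 0.283), which is below background at both ages. Ribosome genes were positive in 27 of 36, led by Rpl35 (0.30 ± 0.10, adjusted p = 0.41), lysosome and proteasome genes in 25 of 43, led by the cathepsin Ctsz (0.31 ± 0.08, adjusted p = 0.222), and iron genes in 12 of 28, where Hp was called. Bile acid genes were negative in 20 of 28, with Fgfr4 first and positive.

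Of the remaining called genes only Pgk1 was in a list, that of gluconeogenesis and glycolysis. That list was positive in 20 of 34 measured members and had 1 called, lower. Cars, cysteinyl-tRNA synthetase, stood at 7.71, 7.47, 7.46 and 7.35 and then at 8.04, 8.01, 8.13 and 8.20, a rise of 0.60 ± 0.10 (adjusted p = 0.0485). Its probe set of largest variance gave 0.12 (adjusted p = 0.984) but was not above background on any array of either age. Gaa, the lysosomal enzyme that degrades glycogen, rose by 0.44 ± 0.07 (adjusted p = 0.0483), and Rab34, a membrane-traffic GTPase, by 0.40 ± 0.06 (adjusted p = 0.0412). Gaa levels were 8.45, 8.55, 8.82 and 8.57 and then 9.01, 9.05, 9.07 and 9.04. Rab34 levels were 6.90, 6.82, 6.80 and 6.98 and then 7.28, 7.25, 7.35 and 7.22. Nfia, a CTF/NF-I transcription factor, stood at 8.39 to 8.52 and 8.72 to 8.86 (0.33 ± 0.06, adjusted p = 0.0483). All 4 were apart between ages on every array.

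A further 4 called genes that rose were dim. Dmrta1, a transcription factor with a DM domain, had the lowest adjusted p of all (0.0138). Its levels were 4.85, 4.95, 5.03 and 4.98 at 6 months and 5.73, 6.21, 5.95 and 5.92 at 18 months, with 1 of 8 arrays above the bound. Limk1, a kinase acting on cofilin, had levels of 4.36, 4.55, 4.49 and 4.22 and then 5.21, 5.24, 5.24 and 5.01. It gave 0.77 ± 0.10 (adjusted p = 0.0166) below the bound throughout, and its other probe sets gave 0.04 and 0.00. Fbxo2, a ubiquitin ligase subunit, stood at 4.04, 4.00, 4.03 and 4.00 and then at 4.52, 4.58, 4.69 and 4.66 (0.60 ± 0.10, adjusted p = 0.0426), and Pamr1, a secreted protease-like protein, at 5.18 to 5.47 and 5.80 to 6.21 (0.67 ± 0.11, adjusted p = 0.0445). Values below the bound are within the range of negative noise, so these 4 calls rest on little signal.

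In the lower direction, Zbtb44, a zinc finger protein, stood at 9.66, 9.69, 9.67 and 9.72 and then at 9.39, 9.36, 9.32 and 9.37 and fell by 0.32 (SE 0.04, adjusted p = 0.0157). Mtf1, the zinc-sensing factor that drives metallothionein genes, stood at 7.78, 7.97, 7.86 and 8.04 and then at 7.28, 7.28, 7.44 and 7.21. It fell by 0.61 (SE 0.09, adjusted p = 0.0226), but another Mtf1 probe set above background on all 8 arrays gave 0.38 (unadjusted p = 0.0246), so the probe sets of this gene disagree in sign. The metallothioneins Mt1 and Mt2 gave 0.47 ± 0.35 and 0.14 ± 0.27. Eif4a2, an RNA helicase of translation initiation, stood at 12.07, 11.99, 12.08 and 12.03 and then at 11.86, 11.82, 11.84 and 11.74 and fell by 0.23 (SE 0.03, adjusted p = 0.0226). Pgk1, the glycolytic phosphoglycerate kinase, stood at 12.11, 12.17, 12.15 and 12.10 and then at 11.90, 12.03, 11.92 and 11.86 and fell by 0.21 (SE 0.04, adjusted p = 0.0485). Its probe set and that of Gaa end in _x_at, which marks possible cross-hybridisation. Zfp583, a zinc finger gene, went from 5.01 to 5.31 down to 4.39 to 4.68 (-0.66 ± 0.11, adjusted p = 0.0483), below the bound on every array. Over the 13 called genes with several probe sets, 17 of 19 other probe sets above background on all arrays of an age had the sign of the call.

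Genes just short of the threshold outside these groups were given by their values. Prg4, a secreted lubricant glycoprotein, stood at 8.41 to 8.81 and 9.21 to 9.64 (0.74 ± 0.13, adjusted p = 0.0616). Fgfr4, the hepatocyte receptor for the bile acid signal Fgf15, gave 0.39 ± 0.08 (adjusted p = 0.12), and Maged1 and Syngr1 gave 0.35 ± 0.07 and 0.86 ± 0.18. Ro60, an RNA-binding autoantigen, stood at 5.39 to 5.87 and 6.07 to 6.37 (0.50 ± 0.10, adjusted p = 0.121). Among the lowest, Mtfr1, a regulator of mitochondrial fission, stood at 9.97 to 10.14 and 9.40 to 9.82 (-0.47 ± 0.09, adjusted p = 0.109), and Aadat, of lysine and kynurenine breakdown, gave -0.48 ± 0.10 (adjusted p = 0.127). Pla2g6, Cryz, Bod1, Tbc1d31, Tlcd4 and Tmem62 gave -0.36, -0.33, -0.24, -0.92, -0.33 and -0.28, with adjusted p of 0.121 to 0.175. Of the senescence markers, Cdkn2a was not above background on any of the 8 arrays and Cdkn1a was above it on 1.

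The comparison of 24 with 12 month mice used other animals, though the same normalization and the same estimate of spread. It called 39 genes, 17 higher (0.0934%) and 22 lower (0.121%), or 0.214% of those tested. Of the 18 genes that rose from 6 to 18 months 16 had a positive difference there, where 43.5% of all genes were positive, and of the 5 that fell 3 had a negative one, where 51.6% were negative. Fgl1, Tmem176a and Itih4 were called in both comparisons, with 24 minus 12 month changes of 1.21 ± 0.21, 0.64 ± 0.11 and 0.32 ± 0.06 (adjusted p = 0.0476, 0.0477 and 0.0477). Ighm gave 1.41 ± 0.80 (adjusted p = 0.449), from a mean level of 9.35 at 12 months to 10.76 at 24 months. Limk1, Fbxo2, Zbtb44 and Zfp583 had the opposite sign. From 12 to 24 months the interferon list had a median change of 0.49, the macrophage list 0.83, the cholesterol list 0.16 and the PPARalpha list -0.03. The 24 month arrays stand apart in mouse numbers and in the Gapdh difference (-0.28 to -0.24, against -0.23 to -0.10 at 12 months). Their mean intensity before normalization, 279 to 298, overlapped that at 12 months, 175 to 292. Age, mouse numbers and the Gapdh difference cannot be told apart at 24 months.

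**Figure D5:**
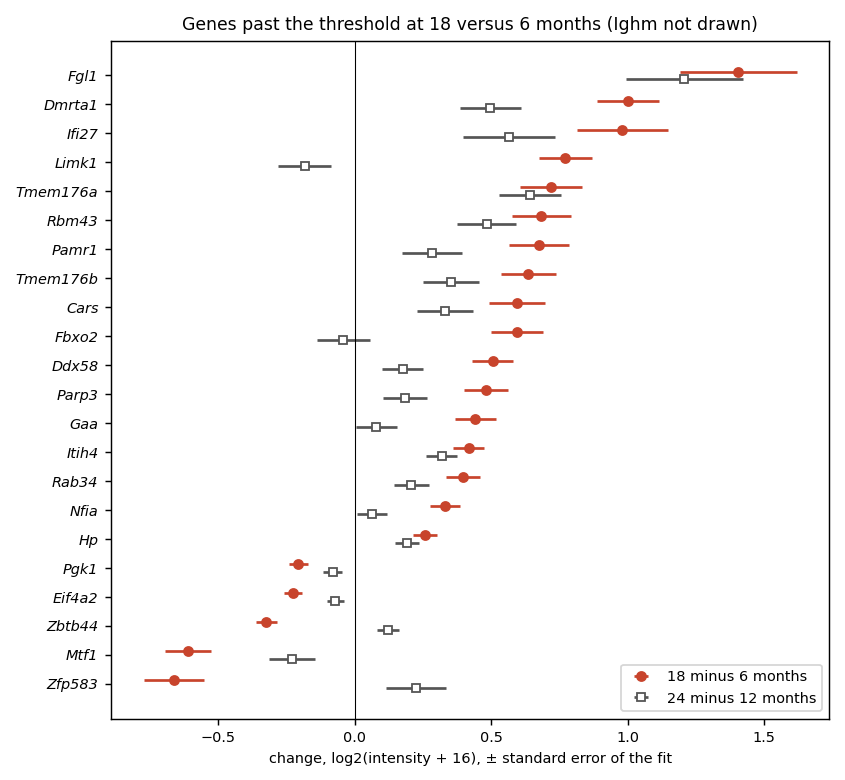
Change of 22 called genes, log2(intensity + 16), from 6 to 18 months (red circles) and from 12 to 24 months in other mice (open squares), with the standard error of the fit as bars. Ighm, at 5.23 and 1.41, is left out for scale. Fgl1, Tmem176a and Itih4 have similar values in both, and Limk1, Fbxo2, Zbtb44 and Zfp583 lie on opposite sides of 0.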

How the data were processed

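The deposited table held linear intensities, 1 per probe set, for 45101 probe sets of the Affymetrix Mouse 430 2.0 array. How the authors scanned, summarised and scaled them is not stated in the labels. Values below 0 were present (18.5% to 20.5% per array at 6 and 18 months). The 16 C57BL/6 arrays were quantile normalized, values below 0 set to 0, and log2(value + 16) taken, which understates the change of dim genes. Genes came from the platform annotation: 34945 probe sets had 1 symbol, 932 several and 9160 none, and the 18193 genes were each read by the probe set of highest mean over 28 arrays. The background bound is the 95th percentile of the sizes of negative normalized values (52.6). A 4-age model was fitted with limma 3.58.1 (R 4.3.3; lmFit, eBayes, two-sided, Benjamini-Hochberg over all genes, threshold 0.05) and tested on simulated data. No array pair held identical values. Named are all called genes, the 12 highest and 12 lowest non-overlapping genes short of the threshold, the member of smallest p of each list, fixed liver genes, and list members chosen after their values were seen. The members and lists were chosen with earlier results of these data known. Normalization, pseudocount, filter, probe set choice, fit and left-out arrays were varied. Figures used matplotlib 3.10.9.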

Additional observations from a re-analysis of the deposited data

Results flagged for a closer look

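Of 308 groups of 4 arrays examined, over the genes named and 5 list medians at 6 and 18 months, 12 had 1 array far from the other 3, where chance gives about 1 in 20. Among the called genes this held for Limk1, at 5.01 in 18 month mouse 19 against 5.21 to 5.24. In the 6 month group mouse 11 was apart for Ro60 (5.39), Rpl35 (11.62), Cdkn1a (4.04), Nr1i2 (8.42) and Cd79b (5.32). Mouse 16 of that group was low for Cfi (12.74) and Dhx58 (4.84), and mouse 2 was high for Abcb11 (12.31) and low for the median of the PPARalpha list (10.70). In the 18 month group mouse 4 was low for Ahr (9.21) and mouse 19 high for Mt1 (8.50).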

How the results depend on the processing

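The number of genes called between 6 and 18 months depended on the processing more than the direction did. Over 542 values of the 23 called genes under other settings, 541 kept their direction, 206 also stayed past the threshold and 335 did not. Limk1 gave 0 where probe sets with the suffixes _s_at, _x_at or _a_at were left out. Against 18 higher and 5 lower genes, array median scaling called 3 and 1, trimmed mean scaling 7 and 2, the 8 arrays normalized and fitted alone 2 and 1, the 2 groups fitted alone 3 and 1, and a test against a minimum of 1.5-fold 0 and 0. Of the 23 called genes 4 were among the calls under median scaling, 9 under trimmed mean scaling, 2 with the 8 arrays alone and 2 with the 2 groups alone. The probe set of largest variance gave 10 higher genes, and leaving out the suffixed probe sets or testing each probe set apart gave 3. Brightness as a covariate gave 5 higher genes and the Gapdh difference 3. A filter on dim genes gave 2 lower genes, and variance with a trend and robust fit 3. Leaving out one array gave 1 to 10 higher and 0 to 5 lower genes for those of this comparison. Control probe sets left out before normalization, an alternative chosen after seeing the data, kept 20 of the 23.

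For 24 against 12 months, with 17 higher and 22 lower genes, array median scaling gave 0 and 0, the 8 arrays alone 2 and 1, those 2 groups fitted alone 2 and 1, no suffixed probe sets 0 and 1, brightness 1 and 3, and the 1.5-fold minimum 0 and 0. The Gapdh difference gave 6 higher, array weights 11 higher, a pseudocount of 1 gave 11 higher, the dim filter 29 higher, a pseudocount of 64 gave 34 lower and the largest variance 12 lower. Leaving out one array gave 1 to 27 higher and 1 to 27 lower. The cause of these shifts was not tested. No paired analysis was possible because the age groups share no replicate numbers. Scaling moved the share of positive genes from 46.1% to between 43.4% and 48.8%, and the non-overlapping genes from 617 higher and 474 lower to 485 and 534 under array median scaling and 642 and 417 under trimmed mean scaling. With 4 arrays per age, signal near the bound of 6.10 limits what dim genes can show.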
